A study of Mus musculus with 6 samples.

Results

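Lrtm2, Wfdc15b, Ubd and Tff3 are 4 genes whose transcripts were far scarcer in Cyr61 KO livers than in control livers. They were taken by symbol from a table of 24411 genes. They were picked because they decreased strongly between these same groups and fall in none of the other gene families followed in these livers, so their decrease is what chose them and is described here without a test. The data are bulk RNA sequencing counts from 3 livers labelled Cyr61 KO and 3 labelled Control. All 6 are from male mice, 24 weeks old, of a strain with floxed Cyr61 (Cyr61fl/fl), after 12 weeks on a diet that induces non-alcoholic steatohepatitis (NASH). The floxed allele is thus common to both groups. The labels name no Cre driver, so the cells that lost the gene are not stated, and they do not say that each library is a separate mouse. P-values therefore measure the spread between these libraries. Libraries held 40377742, 31133292 and 35384607 gene counts in Cyr61 KO replicates 1, 2 and 3, and 34827903, 21032878 and 34826395 in control replicates 1, 2 and 3. In whole liver, fewer cells of a type and less RNA per cell cannot be told apart.

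The proteins have little in common. Lrtm2 encodes a membrane protein with leucine-rich repeats, described mainly in the nervous system. Wfdc15b belongs to the WAP four-disulfide core family, small secreted proteins several of which inhibit serine proteases. Ubd encodes FAT10, a ubiquitin-like modifier that is induced by interferon-gamma and TNF and sends the proteins it is attached to to the proteasome. Tff3 encodes a trefoil factor, a small peptide secreted by mucous epithelia that takes part in mucosal repair.

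The annotated start regions of 3 of these genes are shown, those with the largest decreases among them. Counts per gene do not tell which start was used in these livers. Each window runs from 250 bases before the annotated start to 50 after it, read 5′ to 3′ on the gene's strand, from RefSeq on GRCm38.p6. Capitals mark the motif matches named below. The windows are chr6:119330717-119331016 on the minus strand for Lrtm2, chr2:164221614-164221913 on the minus strand for Wfdc15b and chr17:37193642-37193941 on the plus strand for Ubd.
Lrtm2: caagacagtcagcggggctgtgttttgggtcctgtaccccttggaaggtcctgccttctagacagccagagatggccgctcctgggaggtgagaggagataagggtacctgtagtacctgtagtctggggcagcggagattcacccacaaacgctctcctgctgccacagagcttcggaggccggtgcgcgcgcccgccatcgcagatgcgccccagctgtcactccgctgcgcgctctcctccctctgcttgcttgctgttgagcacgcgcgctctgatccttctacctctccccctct
Wfdc15b: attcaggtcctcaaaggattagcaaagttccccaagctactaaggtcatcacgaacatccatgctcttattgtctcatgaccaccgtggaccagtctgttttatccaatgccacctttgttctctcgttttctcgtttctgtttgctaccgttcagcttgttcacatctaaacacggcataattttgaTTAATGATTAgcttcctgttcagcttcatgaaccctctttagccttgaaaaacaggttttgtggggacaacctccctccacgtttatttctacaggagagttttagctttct
Ubd: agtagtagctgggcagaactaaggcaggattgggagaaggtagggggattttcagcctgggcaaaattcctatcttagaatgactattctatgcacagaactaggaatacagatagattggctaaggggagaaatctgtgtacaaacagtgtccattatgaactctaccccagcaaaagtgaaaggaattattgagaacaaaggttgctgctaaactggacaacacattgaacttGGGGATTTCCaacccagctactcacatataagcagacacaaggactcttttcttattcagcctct

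Motifs were searched on both strands, 9 in all: the NF-kB kappaB consensus, GAS (TTCNNNGAA), the ISRE core (GAAA, any 2 bases, then GAAA), AP-1 (TGANTCA), the HNF1 core (TTAAT, any base, then ATTA), C/EBP (TTGCNNAA), TEAD (CATTCC), the TATA box (TATAAA) and Sp1 (GGGCGG). The Ubd window held 1 match, GGGGATTTCC, which fits the kappaB consensus and lies 15 to 6 bases before the start. Of 32851 windows of the same length, 8.46% hold that consensus. The Wfdc15b window held 1 match to the HNF1 core, TTAATGATTA, 62 to 53 bases before the start, and 0.411% of all windows hold this motif. HNF1 factors are transcription factors of hepatocytes and bile duct cells. The Lrtm2 window shown matched none of the 9 motifs, and a further Lrtm2 start region, chr6:119329155-119329454, matched Sp1 alone, as do 35.7% of all windows. The matches do not overlap each other. The shown Lrtm2 window has 62.3% G and C with 18 CpG dinucleotides, the Wfdc15b window 42.3% with 7 and the Ubd window 42.3% with 0, against a median of 52.7% G and C over all windows. Letters that match are a description and show no binding.

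The targeted gene, Cyr61, was at 3.77, 2.66 and 3.14 CPM in the knockouts and at 15.6, 32.4 and 27.8 CPM in the controls, so its level follows the labels. CPM here are counts per 1000000 after TMM scaling, edgeR's correction for library composition. Of 13563 genes tested with edgeR's quasi-likelihood test, 145 (1.07%) were higher and 322 (2.37%) lower at a Benjamini-Hochberg adjusted p below 0.05, or 27 higher and 23 lower when only library totals set the scale. Hepatocyte markers were present in every library, Alb at 23799 CPM or more, though Ass1 was low at 0.0891 to 0.551 CPM, from 3 to 16 reads. An effect of annotation or counting on Ass1 was not tested, so its level is uncertain. Control replicate 2 stood apart from the other 5 libraries. Its share of reads in genes was 50.9%, where the others had 82.8% to 87.6%. Dmbt1, expressed in mucosal epithelia, reached 1151 CPM in it and no more than 0.449 CPM elsewhere, and the nuclear RNA Malat1 3738 CPM and no more than 128 CPM elsewhere.

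Lrtm2 showed the largest fold of the 4. The gene (ENSMUSG00000055003.14) lies on chromosome 6 from 119315133 to 119330766, minus strand, GRCm38. Its CPM were 0.178, 0.177 and 0.168 in Cyr61 KO replicates 1, 2 and 3, against 15.4, 3.99 and 17.0 CPM in control replicates 1, 2 and 3. These CPM stand for 6, 5 and 6 reads in the knockouts and 548, 116 and 548 reads in the controls. The knockouts were nearly equal to each other, control replicate 2 was well below the other controls, and the groups did not overlap. The means were 0.175 ± 0.00555 CPM in Cyr61 KO livers and 12.1 ± 7.08 CPM in control livers (SD, n = 3 each), and the log2 fold change was -6.09 ± 0.64 (SE). The knockout mean was 1.44% of the control mean. Without control replicate 2 the log2 fold change was -6.48.

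Wfdc15b was the steadiest of the 4 among the controls. The gene (ENSMUSG00000018211.13) lies on chromosome 2 from 164214454 to 164221660, minus strand. Its level was 0.178, 0.142 and 0.112 CPM in the knockouts, from 6, 4 and 4 reads, against 5.14, 5.03 and 5.11 CPM in the controls, from 183, 146 and 165 reads. The 3 controls differed by a factor of 1.02 between highest and lowest, and the lowest control was 28.2 times the highest knockout. The means were 0.144 ± 0.0331 CPM in Cyr61 KO livers and 5.09 ± 0.0588 CPM in control livers (SD, n = 3 each), with a log2 fold change of -5.11 ± 0.43 (SE). The knockout mean was 2.83% of the control mean.

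Ubd was even in the controls and uneven in the knockouts. The gene (ENSMUSG00000035186.6) lies on chromosome 17 from 37193892 to 37196095, plus strand. Its CPM were 1.31, 0.532 and 2.94 in Cyr61 KO replicates 1, 2 and 3, from 44, 15 and 105 reads, against 31.9, 40.4 and 32.9 CPM in the controls, from 1137, 1175 and 1062 reads. The highest knockout was 5.53 times the lowest, while the highest control was 1.27 times the lowest, and the groups did not overlap. The means were 1.59 ± 1.23 CPM in Cyr61 KO livers and 35.1 ± 4.67 CPM in control livers (SD, n = 3 each), a log2 fold change of -4.44 ± 0.52 (SE). Without Cyr61 KO replicate 3, the highest knockout, it was -5.22.

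Tff3 was the most abundant and the most variable of the 4. The gene (ENSMUSG00000024029.4) lies on chromosome 17 from 31125306 to 31129646, minus strand. Its CPM were 7.93, 0.745 and 1.37 in Cyr61 KO replicates 1, 2 and 3, from 267, 21 and 49 reads, against 40.6, 30.7 and 106 CPM in control replicates 1, 2 and 3, from 1446, 892 and 3435 reads. Cyr61 KO replicate 1 was high among the knockouts and control replicate 3 among the controls, yet the lowest control was still 3.87 times the highest knockout. The means were 3.35 ± 3.98 CPM in Cyr61 KO livers and 59.2 ± 41.1 CPM in control livers (SD, n = 3 each), with a log2 fold change of -4.14 ± 0.87 (SE). It was -5.78 without Cyr61 KO replicate 1 and -3.39 without control replicate 3.

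**Figure D1:**
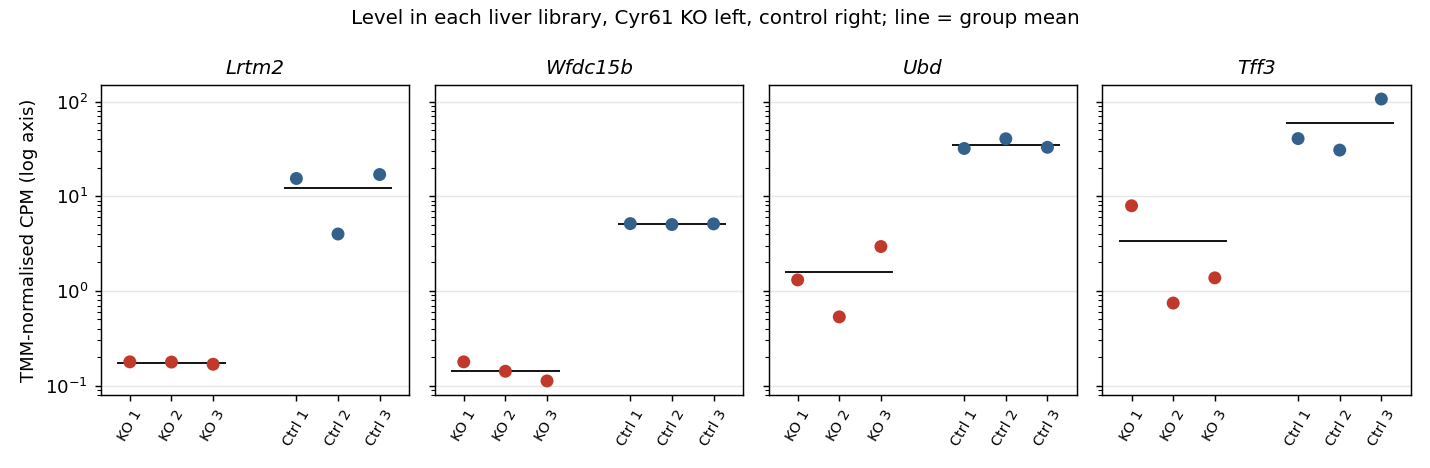
Level of the 4 genes in each liver library, in TMM-normalised CPM on a log axis, with Cyr61 KO libraries (KO, red) left of control libraries (Ctrl, blue), a point per library and a line at each group mean. Wfdc15b is flat within each group, Lrtm2 dips to 3.99 CPM in control replicate 2, and the KO points of Ubd and Tff3 are spread more widely than those of Lrtm2 and Wfdc15b.

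For each of the 4 genes, every knockout lay below every control. Among all tested genes, 35.2% had groups that did not overlap, 17.9% with the knockouts lower and 17.3% with them higher. The test was passed by 3.44% of genes, 2.37% as lower, and 1.28% had a fitted decrease of 8-fold or more, a size that all 4 exceed. Since the genes were picked on this contrast, nothing is read from these shares. Among named genes that passed with no overlap and a mean of at least 1 CPM over the 6 libraries, ordered by fold, Lrtm2 and Wfdc15b came first and second, Ubd the sixth and Tff3 the ninth. Lcn2 and Wfdc3, both at a log2 fold change of -4.13, followed directly after Tff3.

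Counted per kilobase of annotated exon, so that genes of different length can be set side by side, Tff3 had the highest level in both groups, at 6.80 CPM per kilobase in Cyr61 KO livers and 120.1 in control livers. Ubd followed at 1.71 CPM per kilobase in Cyr61 KO livers and 37.7 in control livers. Wfdc15b had 0.252 in Cyr61 KO livers and 8.90 in control livers, and Lrtm2 had 0.0426 in Cyr61 KO livers and 2.95 in control livers. The ranges of neighbours in this order did not overlap in the controls. In the knockouts Tff3, at 1.51 to 16.1 CPM per kilobase, overlapped Ubd, at 0.572 to 3.16. Exons were merged over all annotated transcripts, so a gene read mainly from a short isoform is understated.

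The transcripts share no stretch with other genes that could divide their reads. No run of 50 bases in their annotated transcripts occurs in a transcript of another gene on either strand, out of 4098 such runs in Lrtm2, 561 in Wfdc15b, 882 in Ubd and 444 in Tff3. The strand opposite to the kit's held 1 read of Lrtm2 and 1 of Ubd over the 6 libraries and 0 of the others, beside 1229, 3538, 508 and 6110 reads of Lrtm2, Ubd, Wfdc15b and Tff3 on the kit's strand.

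Control replicate 2, which had less Alb than the other libraries, separates the 4 genes. Relative to Alb, the albumin gene of hepatocytes, Lrtm2 had 1.98, 2.30 and 2.07 reads per 1000000 Alb reads in Cyr61 KO replicates 1, 2 and 3, against 231, 168 and 256 in control replicates 1, 2 and 3. On that scale control replicate 2 was close to the other controls, while in CPM it was the lowest of them. Wfdc15b had 1.98, 1.84 and 1.38 reads per 1000000 Alb reads in the knockouts, against 77.1, 211 and 77.1 in the controls. Ubd had 14.5, 6.90 and 36.2 in the knockouts, against 479, 1700 and 497 in the controls. Both genes were highest in control replicate 2 on the Alb scale, whereas in CPM Wfdc15b was marginally the lowest of the controls there and Ubd the highest. Tff3 had 88.0, 9.66 and 16.9 in the knockouts, against 609, 1290 and 1606 in the controls. The groups stayed apart on this scale in each of the 4 genes. The part of hepatocyte content in these values was not tested.

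**Figure D2:**
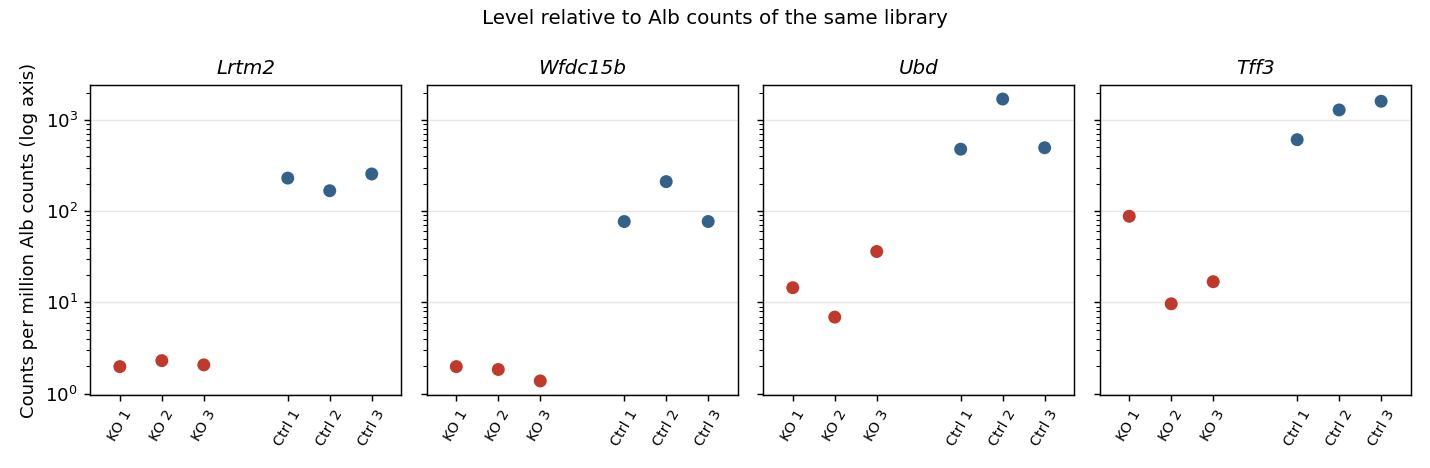
Reads of each gene per 1000000 Alb reads of the same library, on a log axis, with Cyr61 KO libraries (KO, red) left of control libraries (Ctrl, blue) and a point per library. The Lrtm2 points of the 3 controls lie at 168 to 256, whereas Wfdc15b and Ubd peak in control replicate 2 at 211 and 1700.

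Of the genes beside them on the chromosomes that could be tested, none was called lower by edgeR. The 5 nearest genes with a row in the tables were taken on either side, from RefSeq on GRCm38.p6. Of the 8 tested neighbours of Lrtm2, 1 was called higher and 0 lower. The called gene was Adipor2, an adiponectin receptor gene 20880 bases from Lrtm2. It was at 762, 932 and 750 CPM in the knockouts against 257, 119 and 289 CPM in the controls (log2 fold change 1.88, edgeR adjusted p = 0.0386). That call was lost without Cyr61 KO replicate 1 or 2 or control replicate 1 (edgeR adjusted p = 0.092, 0.161 and 0.0745), at log2 fold changes of 1.93, 1.78 and 2.03. Lrtm2 lies wholly inside Cacna2d4, a calcium channel subunit gene on the plus strand. Cacna2d4 had 1, 0 and 3 reads in the knockouts against 17, 11 and 30 in the controls, and its log2 fold change of -3.77 missed the threshold (edgeR adjusted p = 0.0541).

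Around Wfdc15b, 8 of the 10 neighbours had 0 reads in every library. Its closest relative by name, Wfdc15a, ends 14337 bases away and was among these, as were the seminal vesicle genes Svs2 and Svs4. The 2 tested were Stk4, a kinase gene at a log2 fold change of 0.11, and Wfdc12 at -2.94, neither of which passed (edgeR adjusted p = 0.765 and 0.0985). Around Ubd, 8 of 10 neighbours, all odorant receptor genes, had 0 reads in every library, and Gabbr1, a GABA receptor subunit gene and the sole tested neighbour, was at -1.56 (edgeR adjusted p = 0.199). Around Tff3, Tff1 had 0 reads in every library. Tff2, 11451 bases away, was at 0.327, 0 and 0.0280 CPM in the knockouts against 0.365, 31.5 and 0.495 CPM in the controls. The groups did not overlap, but apart from control replicate 2 the controls were close to Cyr61 KO replicate 1, and the gene missed the threshold (edgeR adjusted p = 0.0875). Abcg1, a cholesterol exporter gene 7322 bases from Tff3, had a log2 fold change of -0.998 and also missed it (edgeR adjusted p = 0.11).

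**Figure D3:**
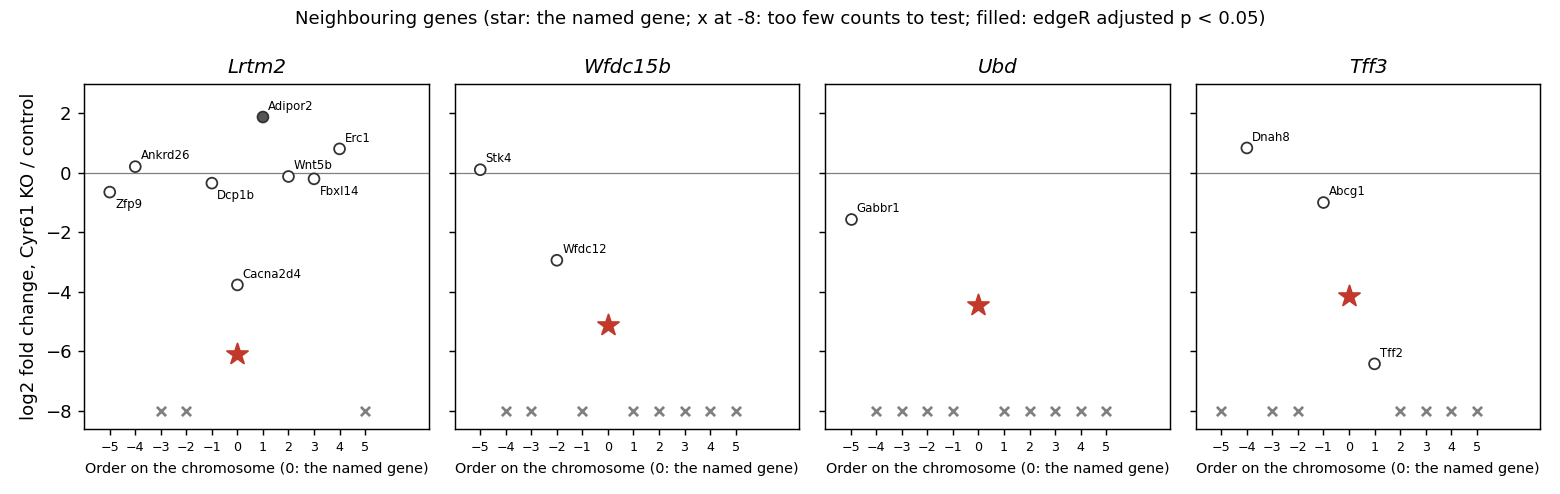
Fitted log2 fold change (Cyr61 KO over control) of the neighbours of each gene against their order on the chromosome, from 5 before to 5 after, with the named gene as a red star at 0. Open circles did not pass edgeR's test, the filled circle (Adipor2, 1.88) did, and crosses at the foot of each panel are genes with too few counts to test, which fill most positions around Wfdc15b, Ubd and Tff3.

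Other WAP four-disulfide core genes were lower in part. Of 24 family members 11 had 0 reads in every library. Of the 10 tested beside Wfdc15b, 2 were called lower and 0 higher, and all 10 had negative log2 fold changes at a median of -1.80, where the median of all tested genes was -0.03. Wfdc3 fell to 0.267, 0.0355 and 0.196 CPM in the knockouts, against 2.84, 4.37 and 1.89 CPM in the controls (log2 fold change -4.13, edgeR adjusted p = 0.0251). Wfdc17, a secreted protein gene of activated macrophages, fell to 10.9, 4.79 and 11.2 CPM against 33.6, 44.8 and 32.3 CPM (log2 fold change -2.04, edgeR adjusted p = 0.025). Slpi, an inhibitor of leukocyte serine proteases, had a log2 fold change of -1.57 and missed the threshold (edgeR adjusted p = 0.0783). Wfdc21, the most abundant of the family, was at 443, 201 and 120 CPM in the knockouts against 275, 203 and 615 CPM in the controls, and the groups overlapped. The calls numbered 0 when Cyr61 KO replicate 1 or 2 was left out and 0 when only library totals set the scale. DESeq2 called 5 of the 10.

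No other gene of mucous epithelium was called by edgeR. Of 24 in the tables, 5 were tested beside Tff3 with 4 at an unadjusted p below 0.05, and DESeq2 called 1, as higher. Their median log2 fold change was -3.23. Leaving out control replicate 2, where 4 of the 5 were highest, brought it to -0.25, and leaving out control replicate 3 gave 3 calls as lower. Muc1, a membrane mucin gene, was at 2.47, 1.95 and 4.71 CPM in the knockouts against 3.57, 59.8 and 3.90 CPM in the controls. Fcgbp, a mucus protein gene, was at 0.802, 0.958 and 0.645 CPM against 0.337, 22.1 and 0.217 CPM. Tff3 itself was lowest among the controls in replicate 2. Pigr, the polymeric immunoglobulin receptor gene, was at 1994, 1994 and 1198 CPM in the knockouts against 697, 793 and 827 CPM in the controls, and did not pass (edgeR adjusted p = 0.0777).

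A minority of the markers of cholangiocytes, the bile duct cells, was called lower. Of 19 tested, 2 were called lower and 0 higher, 16 had negative log2 fold changes, and the median was -2.57. The positive ones were Onecut1 at 2.55, Aqp1, a water channel gene, at 0.91 and Slc4a2, an anion exchanger gene, at 0.12, none past the threshold (edgeR adjusted p = 0.105, 0.0761 and 0.7). With control replicate 2 left out there were 0 calls and the median was -1.21. DESeq2 called 9 lower and 1 higher. Krt23, a keratin gene, fell to 2.32, 1.77 and 3.0 CPM in the knockouts against 23.0, 13.9 and 5.29 CPM in the controls (log2 fold change -2.57, edgeR adjusted p = 0.0374). St14, the gene of the protease matriptase, fell by 2.39 on the log2 scale by the same test (adjusted p = 0.0429). Summed over the list, the CPM were 261, 307 and 419 in the knockouts in turn, against 455, 1788 and 383 in the controls in turn. Control replicate 3 had the highest Tff3 and the lowest summed level of the controls, below that of Cyr61 KO replicate 3. The order of those libraries in the sum rests on Aqp1, at 135 CPM in Cyr61 KO replicate 3 and 45.9 CPM in control replicate 3. Spp1, the most abundant gene of the list in control replicate 3, went the other way, at 126 and 193 CPM. The calls numbered 0 without Cyr61 KO replicate 1 or 2, 1 without control replicate 1, 3 without Cyr61 KO replicate 3 and 12 without control replicate 3. They also numbered 0 when only library totals set the scale. The part of bile duct cells in the Tff3 values was not tested.

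None of the enzymes that handle FAT10 was called by edgeR. Of the 12 tested genes of FAT10 and ISG15 conjugation beside Ubd, 4 had an unadjusted p below 0.05 and DESeq2 called 2 lower. Their median log2 fold change was -0.01. Uba6, the enzyme that activates FAT10, was at 5.08, 8.27 and 11.1 CPM in the knockouts against 5.45, 4.20 and 4.67 CPM in the controls. Ube2z, the conjugating enzyme that receives FAT10 from Uba6, was at 74.7, 70.7 and 71.7 CPM against 69.3, 40.8 and 69.8 CPM. Nub1, which promotes degradation of FAT10, was at 59.4, 48.7 and 48.8 CPM against 43.9, 32.5 and 52.0 CPM. These 3 had log2 fold changes of 0.77, 0.27 and 0.29, all short of the threshold (edgeR adjusted p = 0.175, 0.496 and 0.431). Isg15, the interferon-induced relative of Ubd, was at 16.5, 9.93 and 9.67 CPM in the knockouts against 21.7, 31.3 and 23.7 CPM in the controls, with no overlap. Its log2 fold change of -1.09 missed the threshold (edgeR adjusted p = 0.0627).

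Interferon-gamma and TNF response genes, the signals known to induce Ubd, were lower in part. Of 30 tested, 4 were called lower and 0 higher, and the median log2 fold change was -0.87. DESeq2 called 13 lower and 1 higher. Cxcl9, a T cell chemokine gene, fell to 8.05, 7.27 and 9.50 CPM in the knockouts, against 22.6, 25.1 and 18.1 CPM in the controls (log2 fold change -1.41, edgeR adjusted p = 0.0237). Cxcl10, its close relative, and Gbp3, a guanylate-binding protein gene, fell by 1.88 and 1.20 log2 units (edgeR adjusted p = 0.0434 and 0.0497). Ccl20, a chemokine gene, was at 0, 0 and 0.0280 CPM in the knockouts against 0.365, 1.72 and 0.309 CPM in the controls (edgeR adjusted p = 0.0428). The immunoproteasome subunits Psmb8, Psmb9 and Psmb10 had log2 fold changes of -1.04, -0.96 and -0.99, short of the threshold (edgeR adjusted p = 0.0994, 0.0914 and 0.145). Irf1, an interferon-induced transcription factor gene, had a log2 fold change of -0.50 and was not past it either (edgeR adjusted p = 0.268). The calls numbered 0 without Cyr61 KO replicate 1, Cyr61 KO replicate 2 or control replicate 1, 1 without control replicate 2, 7 without Cyr61 KO replicate 3 and 8 without control replicate 3. They also numbered 0 when only library totals set the scale.

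No other leucine-rich repeat transmembrane gene was called lower by edgeR. Of 39 in the list, 15 were tested beside Lrtm2, of which 1 was called higher, and the median log2 fold change was -0.36. That median turned positive, to 0.09 without control replicate 2 and to 0.40 with a minimum of 1 CPM in 3 libraries. DESeq2 called 1 higher and 3 lower. Amigo1, an adhesion protein gene of neurons, rose to 19.1, 15.6 and 18.7 CPM in the knockouts, against 7.08, 7.78 and 6.99 CPM in the controls (log2 fold change 1.29, edgeR adjusted p = 0.0237). This call was lost without Cyr61 KO replicate 1 or 2 or control replicate 1 (edgeR adjusted p = 0.076, 0.104 and 0.0583), and its adjusted p was 0.107 under library totals. Lrtm1, the nearest relative by name, was at 3.09, 4.79 and 0.280 CPM in the knockouts against 1.26, 1.34 and 1.89 CPM in the controls, and the groups overlapped. Neuronal markers gave 0 calls of 4 tested by edgeR and 1 by DESeq2. Gap43 and Nefl had 0 reads in every library, and Snap25 and Elavl4 reached 0.0344 CPM in control replicate 2 and 0 in the others. Stmn2, a tubulin-binding protein gene of neurons, reached 3.72 CPM in control replicate 2 and at most 0.225 CPM elsewhere. Syt1, a calcium sensor gene of synaptic vesicles, was at 8.29, 8.90 and 12.4 CPM in the knockouts against 4.52, 4.99 and 7.09 CPM in the controls, with no overlap, and missed the threshold (edgeR adjusted p = 0.116).

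Genes of fetal or reprogrammed hepatocytes, a list that also holds Tff3, gave 2 further calls of 11 tested, both lower. Their median log2 fold change was -2.23, and leaving out control replicate 2 brought it to -1.17. Spink1, a secreted trypsin inhibitor gene, fell to 0.921, 0.319 and 0.729 CPM in the knockouts, against 10.1, 7.13 and 17.4 CPM in the controls (log2 fold change -4.11, edgeR adjusted p = 0.0107). Sox4, a progenitor transcription factor gene, fell by 2.32 log2 units (adjusted p = 0.0272 by the same test). Afp, the fetal albumin relative, had a log2 fold change of -1.01, short of the threshold (edgeR adjusted p = 0.156). This list had 0 calls without Cyr61 KO replicate 1 and 1 without Cyr61 KO replicate 2, 4 without Cyr61 KO replicate 3 and 4 without control replicate 3. It had 1 call when only library totals set the scale.

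Calls among markers of immune and matrix-forming cells were all lower, and most were myeloid or stellate. Of the myeloid markers 7 of 13 were called lower, including Trem2, a lipid-sensing receptor gene of macrophages, at -3.09 and S100a9, a neutrophil gene, at -3.90. Adgre1, Csf1r and Clec4f, at -0.52, -0.68 and 0.22, were among those not called, and their groups overlapped. Of the 13, 12 had negative log2 fold changes. The summed level of the myeloid list was 541, 304 and 752 CPM in the knockouts against 1657, 2722 and 1264 CPM in the controls. Of the stellate and fibroblast markers 5 of 11 were called lower, with Col1a1, a collagen gene, at -2.27. Lrat, Reln and Rgs5, at 0.09, 0.05 and -0.05, were not called and their groups overlapped, while 9 of the 11 had negative log2 fold changes. The summed level of the stellate and fibroblast list was 342, 457 and 594 CPM against 951, 1531 and 878 CPM. Cd8b1 was the sole call among 10 tested T and NK cell markers, where DESeq2 called 8. Without control replicate 2 that list had 0 calls and a median log2 fold change of -1.50, in place of -2.97. Jchain was the sole call among 8 tested for B and plasma cells, whose median was -1.80, or -0.46 without control replicate 2. The summed levels for T and NK cells were 4.31, 4.68 and 5.21 CPM in the knockouts against 14.6, 89.5 and 9.59 CPM in the controls. Those for B and plasma cells were 430, 607 and 539 CPM against 569, 342 and 640 CPM, where the groups overlapped. Most of the latter sum came from Xbp1, at 191, 353 and 341 CPM against 235, 141 and 256 CPM. Sdc1 gave most of the rest, at 235, 248 and 193 CPM against 321, 140 and 366 CPM. No other gene of that list exceeded 36.4 CPM, the level of Jchain in control replicate 2. The overlap of these sums therefore describes mainly Xbp1 and Sdc1. Without Cyr61 KO replicate 1 none of these 4 lists held a call, and without replicate 2 the myeloid list held 1. When only library totals set the scale, these 4 lists held no call either. Of the hepatocyte markers 2 of 15 were called higher, Glul and Cyp2e1, at 2.44 and 1.83, both genes of hepatocytes near the central vein. Of the pancreas acinar and gut markers 0 of 5 tested were called by edgeR and 1 by DESeq2, and the acinar gene Amy2a5 had 0 reads in every library. The part of these cells in the 4 decreases was not tested.

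**Figure D4:**
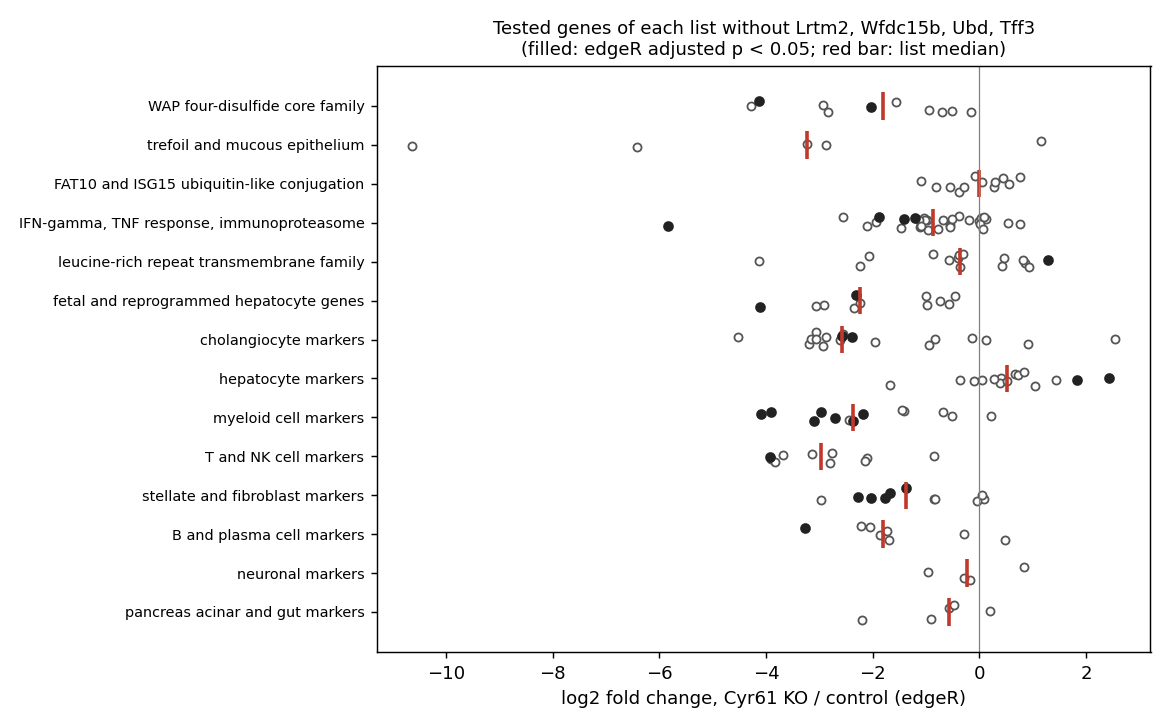
Fitted log2 fold change (Cyr61 KO over control) of the tested genes of each list, a point per gene, with Lrtm2, Wfdc15b, Ubd and Tff3 left out, filled points passing edgeR's test and a red bar at the list median. The FAT10 and ISG15 list centres on -0.01 and the leucine-rich repeat list on -0.36 (0.09 without control replicate 2), while the WAP family centres on -1.80 with no gene above 0.

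Genes with the most similar profile were found by the root mean square difference between 2 genes' log2 CPM over the 6 libraries, each centred on its own mean. The search covered 11915 other tested genes with a mean of at least 1 CPM. The 4 genes themselves were left out, as were unnamed gene models and pseudogenes, recognised by their symbols. The measure rests mostly on the difference between the groups, which chose the 4 genes, so it ranks genes and supports nothing. Spink1 was nearest to Lrtm2, Wfdc15b and Tff3, at differences of 0.92, 0.63 and 0.77 on the log2 scale, where the median gene differed from them by 2.82, 2.36 and 2.59. Next to Lrtm2 came Lcn2, an iron-siderophore binding protein gene of the acute phase, and Ntrk2, the gene of the neurotrophin receptor TrkB. Ntrk2 was at 4.96, 5.39 and 5.72 CPM in the knockouts and 70.4, 23.8 and 68.7 CPM in the controls, so that it too was lowest among the controls in replicate 2. Next to Wfdc15b came Tmprss4, a membrane serine protease gene, and Wfdc3 of the same family. Nearest to Ubd were Lysmd2, Gsta1, a glutathione transferase gene, and Sprr1a, a gene of the cornified epithelial envelope, at differences of 0.50, 0.58 and 0.59. Gsta1 was at 0.772, 0.319 and 5.52 CPM in the knockouts and 27.3, 24.9 and 19.8 CPM in the controls, with the same order of the knockouts as Ubd. Gsta1 and Sprr1a did not pass the test (edgeR adjusted p = 0.0575 and 0.0576). Next to Tff3 came the acute phase genes Saa1 and Saa2, with Saa1 at 93.8, 37.3 and 48.8 CPM in the knockouts and 313, 253 and 1879 CPM in the controls. As for Tff3, Cyr61 KO replicate 1 and control replicate 3 were the highest Saa1 libraries of their groups. Since Gsta1, Saa1 and Saa2 have near-identical relatives, reads may be shared and their levels are uncertain. Among the 4 genes themselves Ubd and Wfdc15b were the closest pair, at 0.76, and Tff3 and Ubd the farthest, at 1.21. Lrtm2 and Wfdc15b differed by 0.77, less than Lrtm2 and Spink1.

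**Figure D5:**
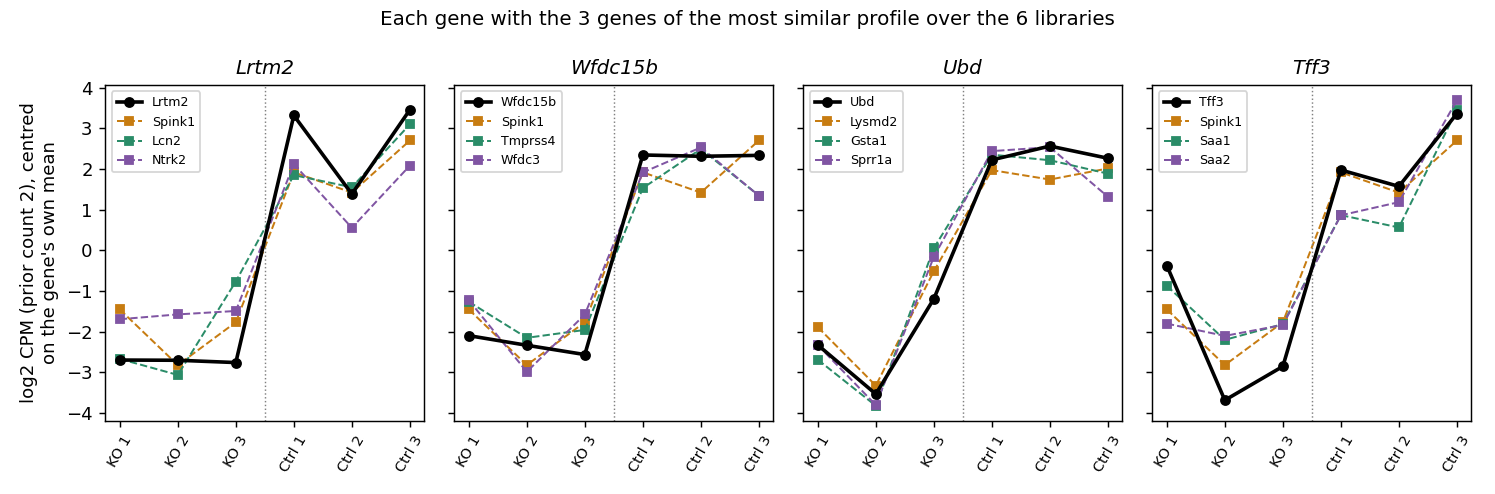
Log2 CPM (prior count 2), centred on each gene's own mean, in the 6 libraries, with Cyr61 KO libraries (KO) left of control libraries (Ctrl), for each of the 4 genes (black) and the 3 genes of the most similar profile (coloured, dashed). Lrtm2 and Ntrk2 both dip in control replicate 2, Ubd and its 3 companions are highest among the knockouts in replicate 3, and Tff3, Saa1 and Saa2 peak in control replicate 3.

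Many of the calls named above were lost when a single library was left out. Of the genes named here, 31 passed edgeR's test, Lrtm2, Wfdc15b, Ubd and Tff3 not counted. They include S100a8 and H2-Ab1 of the myeloid list and Lum, Col1a2 and Col3a1 of the stellate and fibroblast list. Of these 31, 0 passed without Cyr61 KO replicate 1, 3 without Cyr61 KO replicate 2 (Cyr61, Spink1 and Trem2) and 28 without Cyr61 KO replicate 3. Without control replicate 1, 2 or 3 the numbers were 20, 24 and 30. Under library totals 5 passed, and the whole distribution shifted, with a median over all genes of -0.30 in place of -0.03. All 31 passed DESeq2 and none of them changed sign under any alternative. A lost call did not always mean a smaller fold. Without Cyr61 KO replicate 1 the log2 fold change of Spink1 was -4.42 in place of -4.11. In the same setting that of Glul was 2.47 in place of 2.44 and that of Col1a1 -2.23 in place of -2.27.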

How the data were processed

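Read counts per gene were deposited by the authors as 1 table per liver library, with columns for unstranded counts and for either strand. The tools listed per the submitters' processing notes are STAR 2.6.1a and Trimmomatic 0.38, and the listed builds are mm10 and hg38. The annotation and the mapping parameters are not given in the sources used. The labels name a directional kit, and the strand that fits it was used; the opposite strand held 0.928% to 1.35% of the counts on both strands. The unstranded counts were also deposited as 1 joint table, not tested separately. Reads outside genes were left out, 4.27% to 25.7% per library. Reads that mapped to several places were left out too, 3.74% to 19.4% per library. Both shares were highest in control replicate 2.

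The group difference was fitted in R 4.3.3 with edgeR 4.0.16: filterByExpr (minimum count 10, minimum total 15), TMM, the two-sided quasi-likelihood F test and a group term only. This tested 13563 genes, with Benjamini-Hochberg adjustment over all of them. Standard errors were obtained by dividing |log2 fold change| by the root of F. The fit was checked on simulated counts. With 3 libraries a group, the smallest two-sided p of an exact permutation test is 0.1. Alternatives were DESeq2 1.42.0, its size factors in edgeR, library totals, no filter on low counts, a minimum of 1 CPM in 3 libraries, unstranded counts, a replicate block and leaving out each library. Coordinates come from GENCODE M21 and RefSeq on GRCm38, the assembly of mm10. Promoter windows matched 3 of the 4 genes, not Tff3.

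The 4 genes and the 14 gene lists, which hold 254 genes, were chosen with earlier results of these data known. Named genes are the 4, Cyr61, up to 4 called genes per list by p (2 by CPM where none passed), the neighbours, the nearest relatives, the 3 most similar genes each and markers of control replicate 2; other genes of the lists were named after their values were seen, as were the motifs.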

Additional observations from a re-analysis of the deposited data

How the results depend on the processing

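The 4 decreases kept their sign under every alternative. Since the genes were picked for this decrease, with the lowest control at least 3.87 times the highest knockout, the sign could hardly change. It therefore lends the decreases no support. Over the 8 alternatives that keep all libraries the log2 fold change ran from -6.24 to -5.92 for Lrtm2, from -5.40 to -5.07 for Wfdc15b, from -4.70 to -4.40 for Ubd and from -4.65 to -4.10 for Tff3. Leaving out each library gave -6.48 to -5.76, -5.28 to -4.94, -5.22 to -4.02 and -5.78 to -3.39. The change exceeded the spread between replicates for Wfdc15b with library totals, at -5.40, and without Cyr61 KO replicate 1 or 3, at -5.28 and -4.94, and for Tff3 without Cyr61 KO replicate 1, at -5.78; the cause was not tested. The number of genes called moved from 467 to 2273 with DESeq2, 50 with library totals and 944 with no low-count filter, where more genes were tested, and ran from 7 to 878 when a library was left out. With the replicate number as a block it was 633. Same-numbered libraries had correlations of deviations of -0.06, -0.24 and -0.45 over 13563 genes, and differently numbered ones -0.19 to 0.36. No pairing by number is seen in these values, but with 3 libraries a group they cannot exclude one. Under that block Cyp2e1 and Gbp3 lost their calls. The 3 most similar genes of each of the 4 stayed the same under DESeq2's size factors, library totals, no filter on low counts, a minimum of 1 CPM in 3 libraries and unstranded counts. With 4 to 6 reads per knockout library, depth limits the Lrtm2 and Wfdc15b folds.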

Other observations

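The knockout libraries ranked differently from gene to gene. Cyr61 KO replicate 3 was the highest knockout for Ubd and also for Ly6d, a surface protein gene of injured hepatocytes and epithelia, with 4.87, 2.94 and 41.3 CPM in the 3 knockouts in turn, against 101, 155 and 117 CPM in the controls. It missed the threshold (edgeR adjusted p = 0.0866). Cyr61 KO replicate 1 was the highest knockout for Tff3 and, at 443 CPM against 201 and 120 CPM in replicates 2 and 3, for Wfdc21. Onecut1, a hepatic transcription factor gene, had 2.08, 40.8 and 33.8 CPM in the 3 knockouts in turn, against 2.61, 5.03 and 5.48 CPM in the controls, so that Cyr61 KO replicate 1 was the lowest of the 6. Ly6d and Onecut1 were picked here with their values already known.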
